A study of Sus scrofa with 70 samples.

Results

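The bulbourethral gland is a paired accessory sex gland of the boar that secretes the thick, mucin-rich gel fraction of the ejaculate. Its microRNAs (miRNAs) were compared between 2 breeds, using all 6 small RNA libraries of this gland among the 70 libraries of the series. BMI is the Banna mini-pig inbred line, which was bred from Diannan small-ear pigs by mating close relatives, and DSE is the Diannan small-ear pig itself. All tissue came from adult boars 12 months old, with 3 libraries (replicates 1 to 3) for each breed. The labels do not say whether the 3 libraries of a breed came from separate boars, so that every p-value here measures the spread between these libraries, which may be technical. BMI is 1 inbred line, and breed cannot be told apart from any other way in which the BMI and DSE boars were bred, collected or handled as groups.

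The measurement is the deposited RPM, in which the entries of each library sum to 1000000, where an entry is a mature miRNA together with 1 of its precursors. Of the 743 entries, 362 reached 1 RPM in at least 3 of the 6 libraries and were tested, namely 312 entries of known miRNAs and 50 predicted ones, while 381 fell below this filter and 94 of these were at 0 in all 6 libraries. The whole reads behind the RPM values came to 13071968 to 15337045 in BMI and 14653536 to 18132378 in DSE, so that 1 read was worth 0.0551 to 0.0765 RPM. Predicted miRNAs held 0.683 to 1.82% of the RPM. A mature miRNA with several precursors has several entries that can share reads, and such entries are uncertain individually.

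A miRNA is a short RNA cut from a hairpin precursor. It guides the Argonaute proteins to messenger RNAs, mainly by pairing of its seed (bases 2 to 8), and this lowers the translation and stability of the target. Hairpins that lie close together are often transcribed as 1 unit, and miRNAs with the same seed form a family with overlapping targets. In secretory glands, miR-148a, the miR-200 family, miR-375 and miR-182 are usual epithelial miRNAs, miR-143 is typical of smooth muscle and stroma, and miR-1, miR-133a and miR-206 are typical of striated muscle. Sequencing gives shares and not amounts, and when a few miRNAs take most of the reads, a rise in their share lowers the RPM of every other miRNA.

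The mature sequences of the miRNAs on which the comparison turns were read from the RefSeq annotation of the pig genome build Sscrofa11.1, which held 197 of the 262 known miRNA names tested. Capitals mark the seed. The first set is the miR-148 seed family, which includes the most abundant miRNA of the gland. Its 3 members lie at chr18:46415256-46415277 (plus strand, no annotated host gene), chr5:19531038-19531059 (plus strand, in an intron of COPZ1) and chr12:24292264-24292284 (minus strand, in an intron of COPZ2).
miR-148a-3p: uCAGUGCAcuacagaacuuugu
miR-148b-3p: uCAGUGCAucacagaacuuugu
miR-152: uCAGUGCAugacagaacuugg

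The second set holds 5 miRNAs of chromosome X that were among those furthest below the other miRNAs in DSE. On the minus strand, miR-450b-5p (chrX:110381637-110381658), miR-450a (chrX:110381803-110381824) and miR-450c-5p (chrX:110381937-110381958) start within 300 bases of each other, outside any annotated host gene. miR-374b-5p (chrX:59551196-59551217) and miR-374a-5p (chrX:59602924-59602945) lie 51728 bases apart in introns of the same non-coding gene, LOC102165633. miR-450a and miR-450c-5p differ at 1 of 22 bases, so reads of one can be counted on the other.
miR-450a: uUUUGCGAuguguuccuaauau
miR-450b-5p: uUUUGCAAuauguuccugaaua
miR-450c-5p: uUUUGCGAuguguuccuaauac
miR-374a-5p: uUAUAAUAcaaccugauaagug
miR-374b-5p: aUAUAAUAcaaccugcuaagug

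The last set holds the known miRNA with the largest difference towards DSE, miR-184 (chr7:48345068-48345089, plus strand, in an intron of the non-coding gene LOC106507693), and 2 striated muscle miRNAs with the same seed that set 1 DSE library apart, miR-1 (chr17:61894099-61894119) and miR-206 (chr7:45976342-45976363).
miR-184: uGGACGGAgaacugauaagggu
miR-1: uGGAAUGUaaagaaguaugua
miR-206: uGGAAUGUaaggaaguguguga

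DSE replicate 3 stood apart from the other libraries, and results that it moves are given with and without it. The 7 striated muscle miRNAs in the table, of which 4 were tested, summed to 6305 RPM over their entries in this library, against 96.0 and 283 RPM in the other DSE libraries and 340 to 891 RPM in BMI. miR-21-5p, a broadly expressed miRNA that rises in injury and inflammation, held 14.0% of its RPM, against 1.62% and 1.24% in DSE replicates 1 and 2 and 2.35 to 5.06% in BMI. In the RNA-seq library of the same breed, gland and number, skeletal muscle marker genes (ACTA1, MYL1, TNNT3, CKM and MYH1, with 5 of 7 listed genes found) summed to 1428 TPM, against 0 and 22.9 TPM in the other DSE libraries. BMI replicate 1 had 410 TPM of them, and BMI replicates 2 and 3 had 2.01 and 1.67 TPM. Epithelial markers (6 of 6 found) summed to 6548 to 12321 TPM in BMI and 12964 to 24652 TPM in DSE, mostly from AGR2, a secretory epithelium gene. Of the 6 genes, 2 (AGR2 and KRT18) were higher in DSE without overlap, as were 5.11% of the 13778 genes with a mean of at least 1 TPM, whereas EPCAM had 614, 879 and 861 TPM in BMI and 693, 746 and 634 TPM in DSE. Fibroblast markers (5 of 5 found) summed to 1274, 1160 and 2757 TPM in BMI and 777, 500 and 1796 TPM in DSE. Leukocyte markers (5 of 5 found) summed to 661, 957 and 884 TPM in BMI and 600, 422 and 1308 TPM in DSE, and endothelium markers (3 of 4 found) to 62.6, 61.2 and 69.6 TPM in BMI and 61.1, 45.0 and 118 TPM in DSE. In both, DSE replicate 3 was above and the other DSE libraries were below all BMI libraries. For endothelium this was narrow, at 61.1 TPM in DSE replicate 1 against 61.2 TPM in BMI replicate 2. The RNA-seq library of DSE replicate 3 thus stood apart in more than muscle. The labels do not say whether RNA-seq and small RNA libraries of 1 number came from the same boar or tissue piece. Erythrocyte markers (3 of 4 found) overlapped, and germ cell markers (5 of 5 found) summed to at most 7.01 TPM in any library. Their part in the miRNA differences was not tested. In bulk tissue such as this, fewer cells of a type and less RNA per cell cannot be told apart.

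On the RPM scale, nearly all miRNAs were lower in DSE. Of the 362 entries, 331 (91.4%) had a mean log2(RPM + 1) below that of BMI, with a median difference (DSE minus BMI) of -0.70 and quartiles of -1.02 and -0.31. The 3 DSE libraries all lay below the 3 BMI libraries for 146 entries (40.3%) and all above them for 3 (0.829%). limma found an unadjusted p below 0.05 for 135 entries lower in DSE (37.3%) and 2 higher (0.552%). The shift had a similar size at all levels of abundance, with medians of -0.61 for 114 entries under 10 RPM, -0.65 for 122 entries of 10 to 100 RPM, -0.83 for 83 entries of 100 to 1000 RPM and -0.74 for 43 entries above that.

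Only 2 entries passed the threshold of the test (limma, with a p adjusted by the method of Benjamini and Hochberg below 0.05 and a difference of at least 1 on the log2 scale), both lower in DSE (0.552% of the entries tested) and none higher (0%). The next 50 entries, 48 lower and 2 higher in DSE, shared an adjusted p of 0.0587 (limma), so that the number of calls rests on a narrow margin. Without DSE replicate 3, limma called 98 entries lower (27.1%) and 3 higher (0.829%) in DSE on the same scale. The number of miRNAs called different between the breeds by RPM thus depended on that 1 library.

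The general shift was first described by size factors, the median over entries of the ratio of a library to the mean of all 6 on the log scale, taken from the 437 entries above 0 in every library. The log2 size factors were 0.35, 0.49 and 0.33 in BMI and -0.45, -0.38 and -0.31 in DSE. The groups did not overlap, and their means of 0.39 ± 0.0895 and -0.38 ± 0.0683 (SD, n = 3 each) differed by -0.77 (exact permutation test, two-sided, p = 0.1, the smallest that 3 against 3 libraries can give). After each library was divided by its size factor, the median difference over entries was -0.02, with 188 entries (51.9%) below 0 and 174 (48.1%) above. Entries without overlap between the breeds then numbered 26 lower (7.18%) and 27 higher (7.46%) in DSE, and limma found an unadjusted p below 0.05 for 7 lower (1.93%) and 12 higher (3.31%). The number of entries that reached 1 RPM was 364 to 375 in BMI and 333 to 348 in DSE, with means of 369 ± 5.69 and 339 ± 8.14 (SD, n = 3 each). After division by size factors the means were 356 ± 3.06 and 358 ± 9.07.

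**Figure D1:**
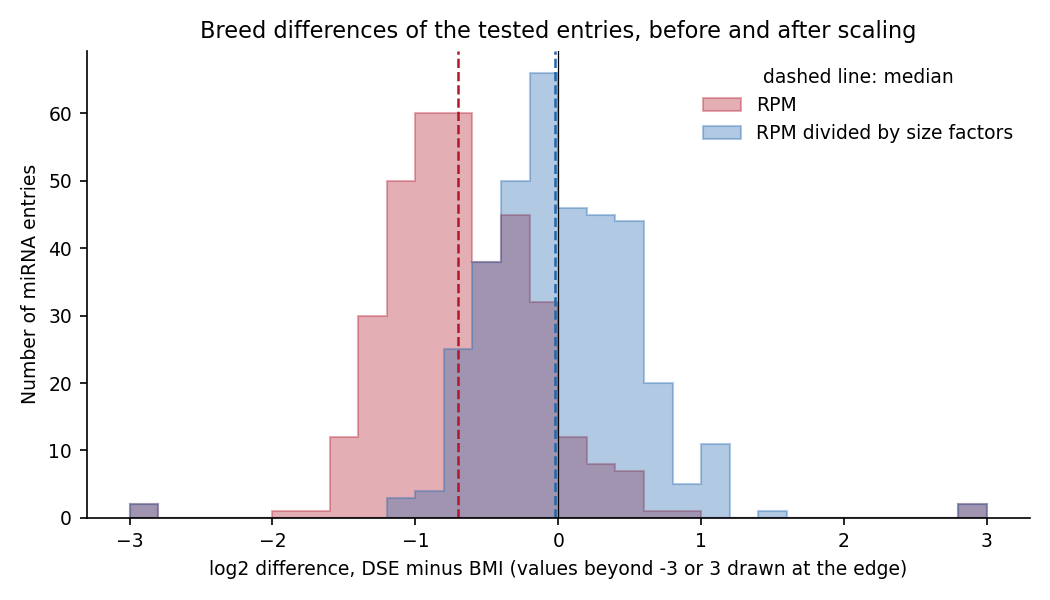
Histogram of the log2 difference (DSE minus BMI, x axis) of the 362 tested entries, with the number of entries on the y axis, for RPM (red) and for RPM divided by size factors (blue). Dashed lines mark the medians of -0.70 and -0.02, and the bars at both edges hold the entries beyond the axis limits.

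A few abundant miRNAs took most of the reads. miR-148a-3p held 56.5, 51.3 and 58.6% of the RPM in BMI and 72.2, 70.7 and 55.9% in DSE. DSE replicates 1 and 2 thus lay above all BMI libraries, whereas DSE replicate 3 lay within the BMI range (mean 55.5 ± 3.80% against 66.2 ± 9.02%, SD, n = 3 each, exact permutation test, two-sided, p = 0.3). miR-21-5p ranked second by the mean of the 6 libraries, a rank that rests on DSE replicate 3, since miR-26a was higher in 4 of the 6 and miR-21-5p had rank 4 without that library. In DSE replicate 3 it filled much of that gap, and together both miRNAs held 61.6, 53.6 and 61.1% in BMI and 73.8, 71.9 and 69.9% in DSE, without overlap. Since DSE replicate 3 itself put miR-21-5p in this pair, the lack of overlap is no separate support. The mean share of miR-26a, which had rank 2 without that library, was lower in DSE (3.11%) than in BMI (4.44%). The 5 most abundant miRNAs, which add miR-26a, miR-200b and miR-375, held 68.5 ± 2.21% in BMI and 79.1 ± 2.91% in DSE, again without overlap (exact permutation test, two-sided, p = 0.1). The 10 most abundant, which add miR-143-3p, miR-99a-5p, let-7f-5p, let-7a and miR-10b, held 80.7 ± 0.65% and 87.6 ± 1.96%. Everything outside these 10 therefore took a smaller share of the reads in each DSE library than in any BMI library.

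**Figure D2:**
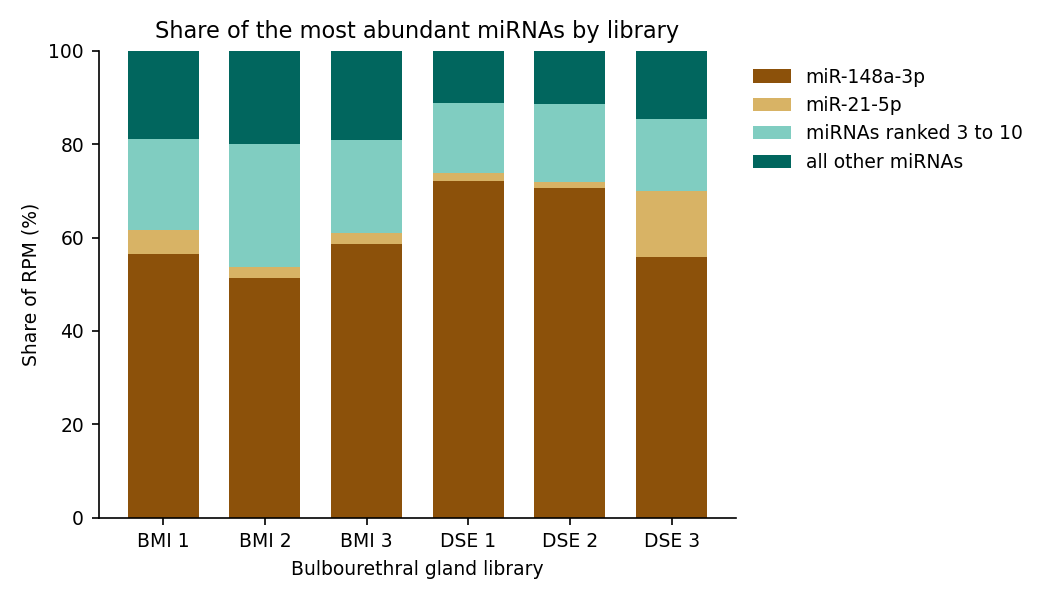
Share of RPM (%, y axis) held by miR-148a-3p, miR-21-5p, the miRNAs ranked 3 to 10 and all others in each of the 6 bulbourethral gland libraries (x axis). miR-148a-3p holds 70.7 to 72.2% in DSE 1 and DSE 2 and 51.3 to 58.6% in the other 4 libraries, while miR-21-5p holds 14.0% in DSE 3.

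The part of these miRNAs in the shift followed from removing them and rescaling the rest to the same total. Without miR-148a-3p, the median difference moved from -0.70 to -0.34, which removed 51.0% of it, and 69.5% of the remaining entries were below 0. Without miR-148a-3p and miR-21-5p the median was -0.24 (66.0% removed), without the 5 most abundant it was -0.19 (72.6% removed), and without the 10 most abundant it was -0.14 (79.8% removed, over 350 entries). Counted on the size factors, the reads taken by miR-148a-3p alone accounted for 55.6% of the breed difference, those of both miRNAs for 71.3%, and those of all 10 for 85.3%. The value for both miRNAs rests on a pair that DSE replicate 3 itself set. Of the 10 taken singly, miR-21-5p accounted for 4.94%, which came from DSE replicate 3 (it held less in the other DSE libraries than in any BMI library), miR-143-3p for 0.545% and miR-375 for 0.262%, while the other 6 (miR-26a, miR-200b, miR-99a-5p, let-7f-5p, let-7a and miR-10b) had a lower share in DSE and worked against the shift. A size factor difference of -0.11 on the log2 scale was left after all 10 were taken out.

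The weight of miR-148a-3p depended on DSE replicate 3. Without that library, miR-148a-3p alone accounted for 79.5% of the size factor difference, miR-148a-3p and miR-21-5p together for 74.8% and the 10 miRNAs for 97.8%, whereas leaving out DSE replicate 1 or 2 brought miR-148a-3p to 40.3% or 44.2%. Removing miR-148a-3p without DSE replicate 3 left a median of -0.20. The 10 miRNAs accounted for 77.2 to 97.8% whichever library was left out. RPM values are shares, and a larger amount of miR-148a-3p per cell in DSE and smaller amounts of the other miRNAs cannot be told apart from them.

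**Figure D3:**
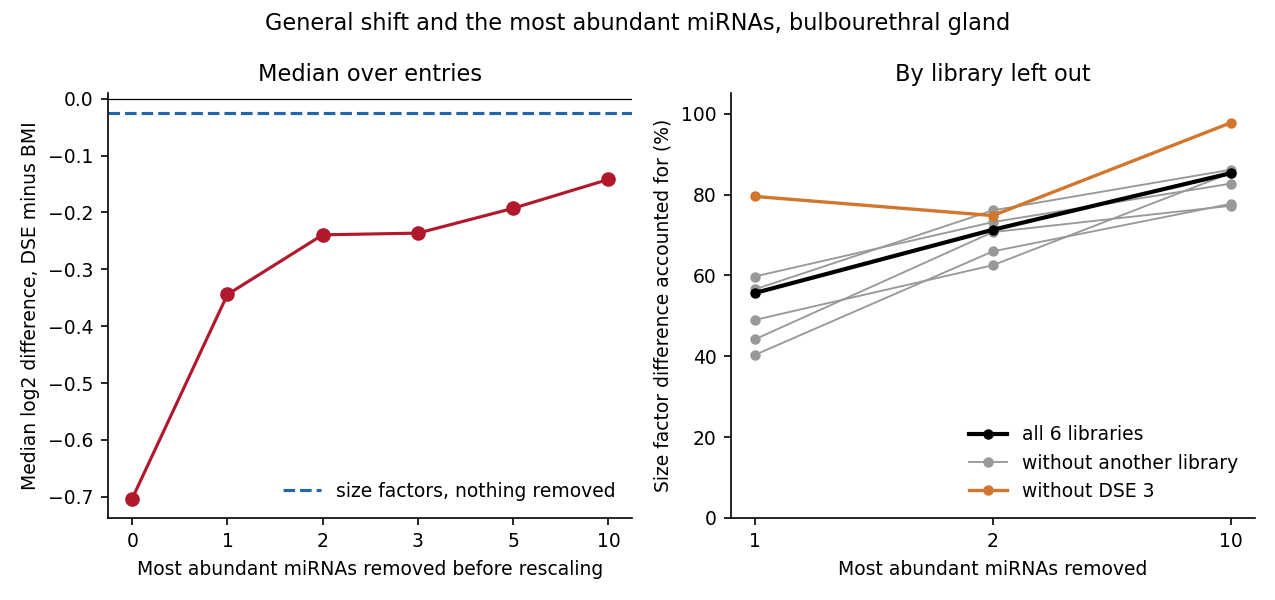
Left, median log2 difference (DSE minus BMI, y axis) over entries after the 0, 1, 2, 3, 5 or 10 most abundant miRNAs were removed and the rest rescaled (x axis), with the median after size factors (-0.02) as a dashed line. Right, percentage of the breed difference in size factors accounted for by the 1, 2 or 10 most abundant miRNAs with all 6 libraries (black), without DSE replicate 3 (orange) and without each other library (grey). The black line runs from 55.6% to 85.3% and the orange line from 79.5% to 97.8%.

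The 2 called entries are both predicted miRNAs, named by chromosome and a running number, and they were at or near 0 in every DSE library. chr8_43390, predicted on chromosome 8, had 67.7, 152 and 51.0 RPM in BMI and 0 RPM in each DSE library. The BMI mean was 90.2 ± 54.1 RPM (SD, n = 3), from 783 to 2190 reads per library. Set against a floor of 3 reads in each DSE library, it was at least 488-fold lower in DSE (fitted log2 difference -6.35, SE 0.419, limma adjusted p = 7.95e-05, where the fitted value depends on the pseudocount of 1). All 3 DSE libraries lay below all BMI libraries. The filter fixed this in advance, since the entry reached 1 RPM in BMI only, and the same holds for chr13_9416.

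chr13_9416, predicted on chromosome 13, had 60.6, 122 and 42.6 RPM in BMI and 0.34, 0.12 and 0.06 RPM in DSE. Those DSE values stand for 5, 2 and 1 reads, and the pooled reads were 459-fold higher in BMI (exact binomial 95% interval 233 to 1064, which covers counting error only). The fitted log2 difference was -5.89 (SE 0.412, limma adjusted p = 7.95e-05). Both calls also held with size factors (-5.97 and -5.44, limma adjusted p = 7.27e-05 and 7.63e-05), where they were again the only ones. They were among the 3 entries called by edgeR (0.829%), the 4 called by DESeq2 (1.1%) and the 5 called with size factors without DSE replicate 3 (1.38%).

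Both predicted miRNAs showed the same breed pattern in the other glands. In testis, chr8_43390 had 227 to 301 RPM in BMI and 0 to 0.44 RPM in DSE, and in epididymis it had 30.4 to 94.5 RPM against 0. In vesicular and prostate gland BMI had 12.6 to 53.8 RPM and DSE at most 0.09 RPM. In testis, chr13_9416 had 180 to 240 RPM in BMI and 2.35, 3.22 and 3.92 RPM in DSE, and in the 3 other glands it had 8.45 to 74.0 RPM against at most 0.49 RPM. chr13_9416 was at 0.67 to 0.89 times chr8_43390 (median 0.81) in all 15 BMI libraries of the 5 glands, and near-identical copies that share reads cannot be told apart here. Their sequences and positions were not analysed here.

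Another predicted entry, chr1_2528 on chromosome 1, showed the reverse, and was singled out after its values were seen. It had 0.08, 0.07 and 0.07 RPM in BMI, which is 1 read in each library, and 2.93, 4.69 and 23.2 RPM in DSE. The pooled reads were 157-fold higher in DSE (exact binomial 95% interval 53.5 to 765, counting error only). The entry passed the filter through DSE only, so the lack of overlap in this gland was fixed in advance. DSE replicate 3 held 421 of the 540 DSE reads, and without it the pooled reads were 55.0-fold higher (interval 18.4 to 271). limma did not call it on RPM, but edgeR did (adjusted p = 0.00444), as did DESeq2. In testis, it was at 0 in the 3 BMI libraries and at 17.1 to 90.1 RPM in DSE, and the groups did not overlap in epididymis, vesicular or prostate gland either.

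**Figure D4:**
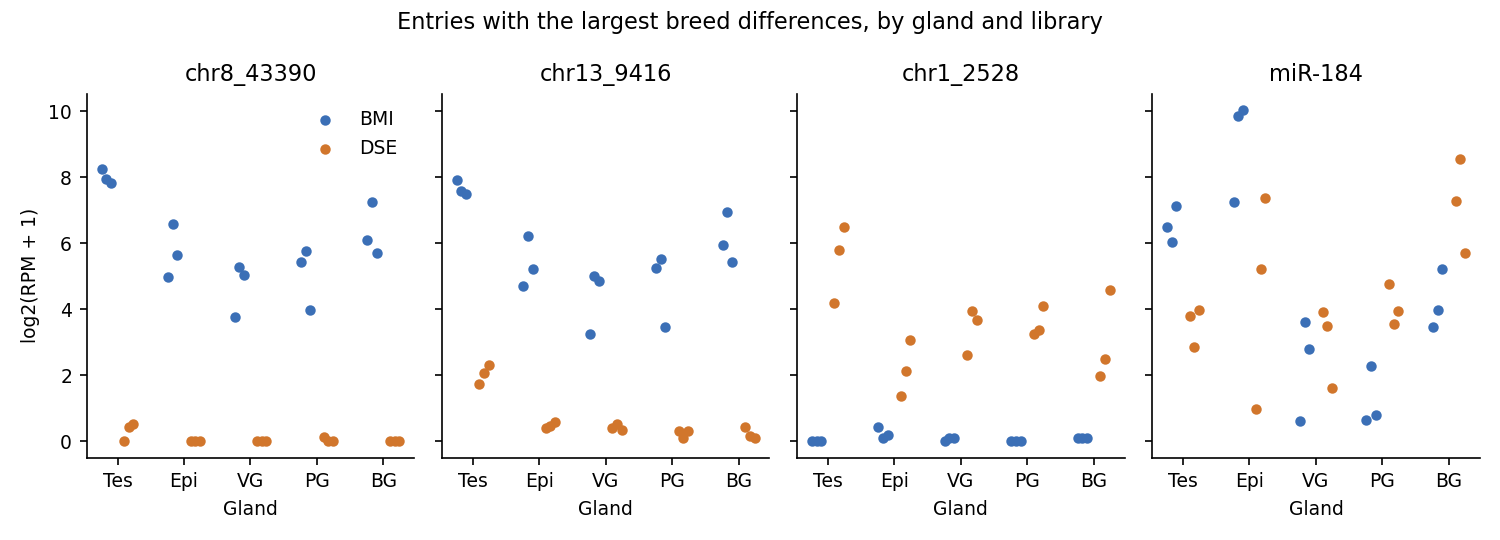
Level of chr8_43390, chr13_9416, chr1_2528 and miR-184 as log2(RPM + 1) (y axis) in 5 glands, 1 point per library (Tes is testis, Epi is epididymis, VG and PG are the vesicular and prostate glands, and BG is the bulbourethral gland), BMI blue and DSE orange. The first 2 entries are lower in DSE and chr1_2528 is lower in BMI without overlap in every gland, while miR-184 is higher in DSE in BG and PG and lower in Tes. In BG the filter fixed the lack of overlap of the predicted entries in advance.

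Among known miRNAs, miR-184 had the largest difference towards DSE. This miRNA, known from eye and other epithelia, had 10.02, 14.85 and 35.99 RPM in BMI and 154.5, 379.04 and 50.85 RPM in DSE. The lowest DSE library, replicate 3, was still above the highest BMI library. The log2 difference was 2.96 (SE 0.733) with a limma adjusted p of 0.0587, and 3.70 with size factors (limma adjusted p = 0.082). DESeq2 called it (adjusted p = 1.84e-07) and edgeR did not (adjusted p = 0.0955). Without DSE replicate 3 limma called it on either scale (size factors: 4.48, adjusted p = 0.000287).

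In the seed family of miR-148a-3p, miR-148a-3p and miR-152 had nearly equal differences on both scales and miR-148b-3p a lower one, and no test between members was made. With size factors, miR-148a-3p was 1.02 higher in DSE on the log2 scale (SE 0.300) and miR-152 was 1.05 higher (SE 0.298), each with all 3 DSE libraries above all BMI libraries, and both with a limma adjusted p of 0.488. Scaled levels of miR-152 were 2969, 2181 and 3041 in BMI and 5951, 4871 and 6082 in DSE (RPM divided by size factor), so that all 3 DSE libraries had more, DSE replicate 3 included. The remaining member, miR-148b-3p, had a scaled difference of 0.00, an RPM difference of -0.77 and a mean of 2060 RPM. The other arm of the miR-148a hairpin, miR-148a-5p, differed by 0.05 with size factors and -0.72 by RPM. Without DSE replicate 3 the differences with size factors were -0.25 for miR-148b-3p and 0.20 for miR-148a-5p. On the RPM scale miR-148a-3p and miR-152 differed by only 0.25 and 0.28, and their breeds overlapped. edgeR gave miR-148a-3p an adjusted p of 0.0955 and called it without DSE replicate 3 (log2 difference 1.12). DESeq2 did not call it (adjusted p = 0.492), nor did limma with size factors without DSE replicate 3 (1.17, adjusted p = 0.119).

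The known miRNAs furthest below the rest in DSE were chosen by rule from those with an unadjusted p below 0.05 by RPM, a mean of at least 10 RPM and no overlap. The criteria were met by 76 miRNAs, 72 of them known, of which the rule keeps the 8 with the largest differences. These 8 had RPM differences from -1.89 to -1.42 and a limma adjusted p of 0.0587 each. Apart from miR-182, an epithelial miRNA of the miR-183 cluster, and miR-411, from the imprinted DLK1-DIO3 cluster, they were 3 miR-450 and 3 miR-374 miRNAs of chromosome X. Another X-linked miRNA of that kind, miR-374b-3p, was below the minimum of 10 RPM (mean 3.06 RPM).

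miR-450b-5p had 82.93, 73.97 and 106.67 RPM in BMI and 25.5, 12.4 and 36.4 RPM in DSE. miR-374b-5p had 301, 143 and 190 RPM in BMI and 61.4, 58.5 and 58.9 RPM in DSE. Both kept groups without overlap after size factors, with log2 differences of -1.14 (SE 0.423) and -0.98 (SE 0.364), and neither passed the adjusted threshold (limma adjusted p = 0.631 for both). The groups of miR-182, miR-450a and miR-450c-5p also stayed without overlap after size factors, whereas those of miR-374a-3p, miR-374a-5p and miR-411 overlapped. Of all entries tested, 7.18% were lower in DSE without overlap on that scale. miR-182 had 8539, 6735 and 5052 RPM in BMI and 2785, 2654 and 1468 RPM in DSE. Its difference of -1.58 became -0.81 with size factors, and -0.48 with size factors and without DSE replicate 3. The other 5 had differences of -0.78 to -0.67 with size factors.

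**Figure D5:**
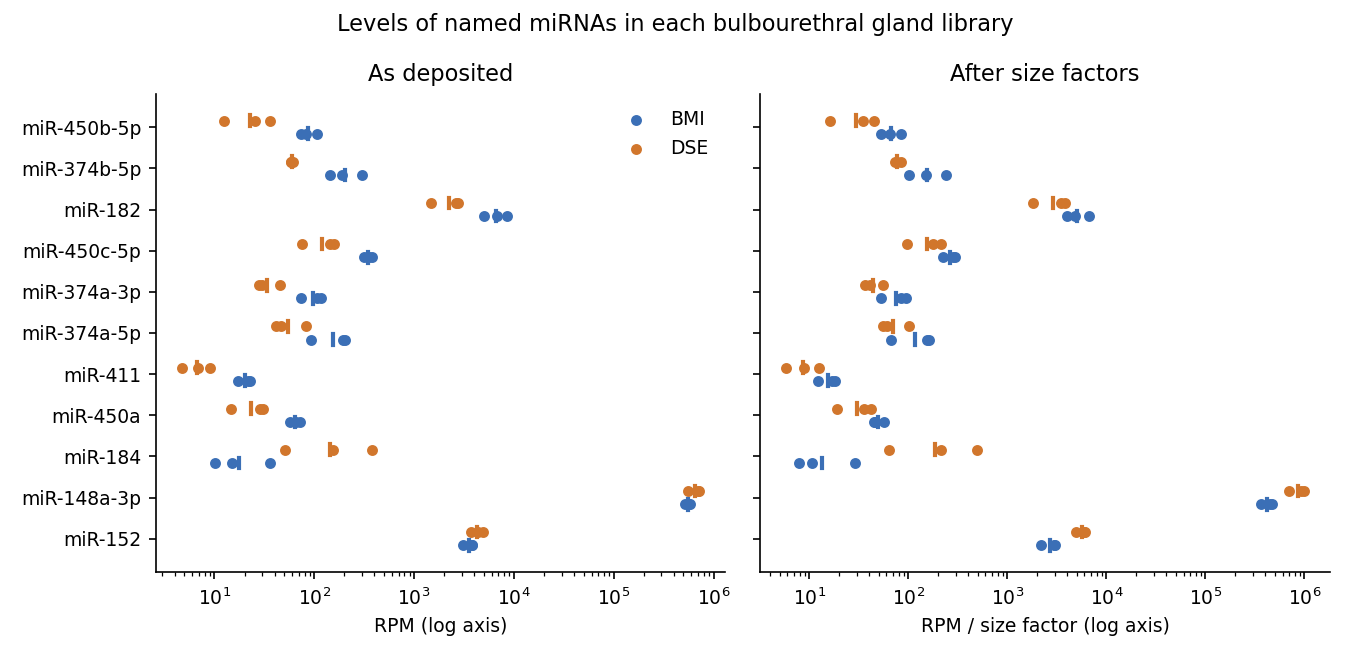
Levels of 11 named miRNAs in each library as RPM (left) and RPM divided by size factor (right), on log axes, BMI blue and DSE orange, with a short bar at the geometric mean of each breed. The breeds lie closer together after scaling for the X-linked miRNAs and further apart for miR-148a-3p and miR-152, while miR-184 stays without overlap in both panels.

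Since 6 of these 8 miRNAs lie on chromosome X, all X-linked miRNAs were counted, a step chosen after their values were seen. Of the tested known miRNAs whose RefSeq loci all lay on a single chromosome, 25 were on chromosome X and 151 on autosomes. With size factors, 21 of the 25 X-linked miRNAs were below 0, with a median of -0.42, against 76 of the 151 autosomal ones (50.3%), with a median of 0.00. Without DSE replicate 3 these were 20 of 25 (median -0.64) and 70 of 151 (median 0.03). The X-linked set includes miR-221-3p (-0.49), miR-98 (-0.64) and miR-542-3p (-0.49) besides the miR-450 and miR-374 miRNAs, and on the other side miR-1468 (0.54). These 4 were at -1.08, -0.71, -0.87 and 1.35 without DSE replicate 3. With all 7 X-linked miR-450 and miR-374 miRNAs left out, 14 of 18 were below 0 (median -0.22), and 13 of 18 without DSE replicate 3 (median -0.36). These 18 still hold miR-542-3p (-0.49) and miR-421-3p (-0.46), close neighbours of the miR-450 and miR-374 miRNAs. The smaller count is therefore not separate from the miRNAs that prompted it. Many of the 25 lie in shared clusters and are not independent, and no test was made.

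None of the 20 lists of families, clusters and cell type miRNAs held a called member by RPM or size factors. Both called entries are predicted and the lists hold known miRNAs, of which 0 of the 312 tested entries were called. The let-7 family, which opposes proliferation in many tissues, had 12 of 13 entries below 0 by RPM (median -0.86) and 8 of 13 with size factors (median -0.11). The miR-200 family, which holds cells in the epithelial state, had medians of -0.81 and -0.04, and the miR-30 family had medians of -0.86 and -0.09. Lists that remained further below the median of all entries with size factors were the miR-181 family (6 of 6 entries below 0, median -0.47), the miR-424 and miR-450 cluster (6 of 7, median -0.49) and the DLK1-DIO3 cluster (13 of 15, median -0.50). Without DSE replicate 3 these medians were -0.64, -0.78 and -0.55, and those of the let-7, miR-200 and miR-30 families were -0.07, 0.37 and -0.18. With each library left out in turn, the miR-181 median ranged from -0.64 to -0.34 and the DLK1-DIO3 median from -0.72 to -0.36. That of the miR-424 and miR-450 cluster ranged from -0.78 to -0.20, and it was -0.20 without DSE replicate 2.

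Summed over its entries, the miR-181 family had 776, 1139 and 997 RPM in BMI and 334, 382 and 536 RPM in DSE, without overlap, as for 40.3% of all entries. Divided by size factors the sums were 611, 809 and 792 in BMI and 456, 496 and 666 in DSE, so that the breeds overlapped. The DLK1-DIO3 cluster, whose miRNAs are expressed from the maternal chromosome, had 1800 to 4188 RPM in BMI, most of it miR-381-3p, and 950, 575 and 2348 RPM in DSE, so that DSE replicate 3 lay within the BMI range. The secretory epithelium list went from a median of -0.95 to -0.22 (-0.03 without DSE replicate 3), with miR-375 at 15358, 34228 and 15903 RPM in BMI and 28097, 31427 and 10053 RPM in DSE. That miRNA, of endocrine and mucous epithelia, overlapped between the breeds on both scales. With size factors the overlap came from DSE replicate 3, and without it the difference went from 0.80 to 1.35 (limma adjusted p = 0.119), with both other DSE libraries above all BMI libraries.

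Above the median of all entries with size factors lay the miR-29 family (0.35, 4 of 4 entries above 0), the neural list (0.65, 13 of 13 above 0) and the germ cell and ciliated list (1.01, 2 of 3 above 0, both of them entries of miR-34c that share reads). Without DSE replicate 3 they were 0.34, 0.99 and 1.0, and without DSE replicate 2 the neural median was 0.23. The 13 entries of the neural list are not separate measurements, since its 6 names, each by its highest entry, had only 3 distinct sets of values: those of miR-128, of the 3 miR-9 names and of the 2 miR-129 names. miR-34c, a miRNA of multiciliated and germ cells, had 51.7, 35.6 and 34.8 RPM in BMI and 58.8, 37.0 and 51.2 RPM in DSE. The smooth muscle and fibroblast list had a median of -0.29 (-0.48 without DSE replicate 3, 0.27 without DSE replicate 2) with 8 of 13 below 0, and its main member miR-143-3p had 19575 to 21334 RPM in BMI and 13757, 21906 and 34337 RPM in DSE. The summed fibroblast markers were lower in DSE replicates 1 and 2 than in any BMI library, although 0 of the 5 genes were without overlap between the breeds (10.6% of all genes with a mean of at least 1 TPM, both directions), while smooth muscle markers (5 of 5 found) overlapped, at 150 to 503 TPM in BMI and 152 to 649 TPM in DSE, and their part was not tested. The medians of the miR-17-92 list (0.01), the miR-10 and miR-196 list (-0.05), the miR-148 and miR-152 list (0.05) and the erythrocyte list (-0.02) were within 0.1 of 0 with size factors. Without DSE replicate 3 they were -0.33, 0.16, 0.20 and -0.09. With each library left out in turn they ranged from -0.33 to 0.30, -0.34 to 0.16, -0.0004 to 0.45 and -0.41 to 0.24. Those of the endothelium (0.23), leukocyte (0.10), stress response (0.54) and liver lists (1.08, miR-122-5p alone) were higher, and without DSE replicate 3 they were 0.19, -0.02, 0.01 and 2.03. The liver value came from DSE replicate 2, since miR-122-5p had 6.20, 26.02 and 4.37 RPM in BMI and 4.37, 117 and 2.81 RPM in DSE, and without that library it was -0.52. The striated muscle list had a median of 0.51, of -0.55 without DSE replicate 3 and of 2.66 without DSE replicate 1.

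The same breed contrast in other glands was used to see whether the differences were particular to the bulbourethral gland. The RPM medians over the same 362 entries were -0.68 in epididymis, -0.55 in vesicular gland and -0.21 in prostate gland, beside -0.70 here. With size factors over the 24 libraries they were 0.00, -0.15, -0.03 and -0.03. The interaction, which is the breed difference in bulbourethral gland minus the mean of that in these 3 glands, was called by limma for 0 entries on either scale (0%), with an unadjusted p below 0.05 for 7 entries (1.93%) on each. With size factors and without DSE replicate 3, it called 1 entry, the predicted chr2_19881 (1.47, SE 0.243, limma adjusted p = 0.00257). This entry was at 0 in all 18 libraries of the 3 other glands. Those libraries add no spread, which lowers the SE and the p-value. With all libraries, no difference was shown to be particular to this gland.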

How the data were processed

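Small RNA was sequenced from 6 bulbourethral gland libraries, 3 of BMI and 3 of DSE, after extraction of total RNA and preparation with the NEBNext small RNA kit. The authors trimmed the reads, removed those of other small RNA classes with Bowtie (version 1.3.1 in the submitters' processing notes), predicted further miRNAs with miRDeep2 and quantified all entries against pig build Sscrofa11.1. The deposited RPM values are reads per entry scaled to a fixed total (RPM) in each library. They are whole multiples of 1 read for 100% of the low values checked (within 0.1 read), so whole read counts were recovered from the deposited values for count models only. The deposited RNA-seq TPM values (Salmon 1.9.0) were summed per gene for marker checks only, and 24 TPM columns of other glands were not used.

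Tests were run with limma 3.58.1 in R 4.3.3 on log2(RPM + 1), for entries of 1 RPM or more in at least 3 libraries, with Benjamini-Hochberg adjustment over all 362, and called at an adjusted p below 0.05 and a log2 difference of at least 1. Fold changes on this scale understate those of low miRNAs. edgeR 4.0.16 (quasi-likelihood, TMM) and DESeq2 1.42.0 were run on the recovered counts. Size factors were medians of ratios. On simulated data for this comparison (362 entries), limma called 16% of planted log2 differences of 1, 74% of those of 2 and 0% of unchanged entries, and edgeR 28%, 89% and 0.617%. Named miRNAs are the called entries, up to 8 per direction by unadjusted p, size and lack of overlap, the 10 most abundant and the 2 most abundant of each list. The miRNAs, lists and tests were chosen with earlier results of these data known. Each library was left out in turn, and fits that combine leaving out DSE replicate 3 with another scaling or model, and list medians with size factors without each library, were added after the values were seen.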

Additional observations from a re-analysis of the deposited data

Results flagged for a closer look

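The breed difference of miR-184 had opposite directions in 2 glands. In bulbourethral gland all 3 DSE libraries were above all BMI libraries (2.96 on the log2 scale, DSE minus BMI), and in testis all 3 DSE libraries (6.18, 12.8 and 14.8 RPM) were below all BMI libraries (64.7, 88.8 and 138 RPM), a difference of -3.01. This difference between the glands was not tested. In prostate gland DSE was higher too, at 10.8 to 26.1 RPM against 0.55 to 3.86 RPM. In epididymis BMI had 152, 933 and 1052 RPM and DSE 0.97, 36.0 and 164 RPM, a difference of -4.54 with 1 DSE library within the BMI range, and in vesicular gland the breeds overlapped (0.53, 11.3 and 5.97 RPM against 14.2, 10.3 and 2.06 RPM).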

How the results depend on the processing

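The 2 called entries numbered 31 without a filter on low values, 4 with DESeq2, 33 in 1 fit of all 30 small RNA libraries and from 2 to 101 when each library was left out in turn (101 without DSE replicate 3). Chosen after seeing the data, the fits without DSE replicate 3 called 5 entries with size factors, 6 with edgeR and 7 after removal of miR-148a-3p. The median difference was -0.78 with a pseudocount of 0.1, -0.28 without a filter, -0.0247 with size factors, -0.0554 with TMM, and -0.34, -0.24, -0.24, -0.19 and -0.14 without the 1, 2, 3, 5 and 10 most abundant miRNAs. It ranged from -0.78 to -0.65 when each library was left out, and was -0.0344 with size factors and -0.20 without miR-148a-3p when DSE replicate 3 was also left out. The cause of these moves was not tested, other than that the scaling alternatives take out the general shift and an unfiltered table adds low entries. The interaction called 1 entry with size factors and without DSE replicate 3, chr2_19881, which was at 0 in all 18 libraries of the 3 other glands. With size factors, 143 of all 362 entries and 21 of the 50 named went from below to above 0 and none the other way. Of named miRNAs with an unadjusted p below 0.05 by RPM, those that changed sign were let-7f-5p (0.0586 with size factors, 0.0230 with TMM, 0.0491 with DESeq2, 0.118 with size factors and 0.0712 with edgeR when DSE replicate 3 was left out), miR-429 (0.120 and 0.0645 with size factors and edgeR without DSE replicate 3) and miR-30d (0.00089 with size factors without it). The labels share replicate numbers between the breeds without saying what they mark, and the paper calls the samples of both breeds paired without saying how. Same-numbered libraries deviated together with correlations of -0.13, 0.45 and 0.29, and differently numbered ones with -0.41 to 0.23. Numbers 2 and 3 each matched best with their own number. Whether they are pairs is not known, and the main test took none. With a replicate block, 82 entries were called (2 higher, 80 lower), and the interaction gave 0. Size factor differences stayed between -0.80 and -0.71 in all alternatives run, and the share of the 5 most abundant miRNAs stayed higher in DSE. At 13071968 reads or more in each library, counting error matters mainly for entries of a few reads.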
